A study of Oryctolagus cuniculus with 134 samples.

Results

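The mitral valve (MV) was compared with the tricuspid valve (TV) of rabbits fed standard chow (Ctrl). Every library labelled Control with the code MV or TV was taken, which gave 13 of the 134 RNA libraries of the series. There were 6 MV and 7 TV libraries from 7 male New Zealand White rabbits, and 6 of these rabbits gave both valves and form 6 pairs. The Ctrl rabbits were 12 weeks old at the start of the 16-week protocol and received neither vitamin D2, nor lipids, nor X-rays. The same pair of valves was read in 3 other treatments of the same strain, sex, age and duration. Lard rabbits (14 MV and TV libraries) ate 5% lard, CHT rabbits (12 libraries) ate 0.3% cholesterol, and IR/CHT rabbits (14 libraries) ate 0.3% cholesterol and received 24 Gy on the heart in 3 fractions of 8 Gy after 8 weeks. All 3 groups drank vitamin D2 at 25000 U a day, scaled to body weight, for the first 15 days. The aortic (AoV) and pulmonary valves (PV) of Ctrl rabbits (14 libraries) served as the second pair of left and right valves. Each valve was dissected whole and frozen, and how much of the annulus or of the chordae went with the leaflets is not given in the sources used here.

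MV and TV are the inlet valves of the ventricles. MV closes against the high pressure of the left ventricle, and TV against the low pressure of the right one. Their leaflets hold interstitial cells in layers of collagen, proteoglycan and elastic fibres under an endothelium, and heart muscle of the atrium and annulus reaches into the base of the leaflet. During development the interstitial cells derive largely from the endocardium. Levels are given as CPM, read pairs of a gene relative to all read pairs of the library, on library sizes scaled by the trimmed mean of M values, and a differentially expressed gene (DEG) has an edgeR adjusted p under 0.05 and a fold change over 1.5 in the test of MV against TV within rabbits.

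The 13 libraries held 14866435 to 23041138 read pairs on genes (median 17117384), within the 13564979 to 50577676 of all 134. Profiles were checked against the mean of each valve on the same treatment. The 6 paired TV libraries correlated with the TV mean at 0.976 to 0.983. The unpaired library labelled TV of rabbit L08256 (L168) correlated with the TV mean at 0.808 only, as compared to 0.963 with AoV, 0.918 with MV and 0.822 with PV. It went against its label and is given separately throughout. Since its rabbit has no MV library, L168 adds nothing to the within-rabbit difference, and without it 4086 instead of 4129 genes were DEGs. Of the MV libraries, L262 of rabbit L08719 was slightly closer to AoV (0.969) than to MV (0.957). Among the other groups used here, 2 of 7 AoV libraries on Ctrl were nearest to MV, and 3 MV or TV libraries on Lard, 2 on CHT and 1 on IR/CHT were nearest to another valve. A PV and a TV library of 1 Lard rabbit were each nearest to the other's valve.

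Between the valves of the same rabbit, 4129 of 14018 tested genes (29.5%) were DEGs. MV was higher in 2884 (20.6%) and TV in 1245 (8.88%), and the median log2 fold change over all tested genes was -0.01. More than 4-fold differed 526 DEGs (215 higher in MV, 311 higher in TV). On Ctrl the TV side thus held fewer DEGs but more of those over 4-fold, whereas in the other treatments most of these were higher in MV (482 of 710 on Lard, 534 of 681 on CHT and 538 of 707 on IR/CHT). The sign was the same in all 6 pairs for 2492 of the DEGs higher in MV and 1166 of those higher in TV. The MV and paired TV ranges did not overlap in 1343 and 787 of them. These counts were made among the DEGs only, whose selection favours them, and are not given here for all tested genes. In L168, 2767 of the 2884 and 1153 of the 1245 lay within or beyond the MV range. Without the rabbit in the model 114 genes were DEGs higher in MV and 430 higher in TV, and with L168 also left out these counts were 2814 and 1149. On the 4 pairs with both libraries on plate 1, 4314 genes were DEGs. Only 1 pair was on plate 2 and 1 was split between plates, so that plate 2 alone gives no test.

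The DEGs with the smallest p that were higher in MV included genes of matrix, adhesion and the cytoskeleton. CCN2, a matricellular growth factor that responds to tension, was at 348 to 632 (median 483) CPM in MV and at 119 to 222 (median 180.996) CPM in the paired TV libraries (log2 fold change 1.44, SE 0.07, adjusted p = 0.000104 in edgeR). ACTN1, the alpha-actinin of stress fibres and focal adhesions, was at 493 to 856 (median 669.9) CPM in MV and 172.2 to 285 (median 246.6) CPM in TV (log2 fold change 1.54, SE 0.09, adjusted p = 0.000121 in edgeR). P4HA3, a subunit of the enzyme that hydroxylates collagen prolines, was at 27.5 to 44.5 (median 35.2) and 8.52 to 12.6 (median 11.04) CPM (log2 fold change 1.75, SE 0.09, adjusted p = 0.000104 in edgeR). No MV library overlapped with a paired TV library in any of them, and L168 lay within or above the MV range. The others of the first 12 were MMP2, OLFML2B, PLXNA2, ACAN, OSBP2, SERPINE2, RHOB, WASF2 and SOX9, with log2 fold changes from 0.98 (WASF2, an activator of actin branching) to 3.11 (OSBP2, an oxysterol-binding protein). RHOB, a small GTPase of the actin cytoskeleton, differed by 1.47 ± 0.10 (SE).

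The 12 DEGs higher in TV with the smallest p were led by ATP8A2, a phospholipid flippase at 0.462 to 1.41 (median 1.17) CPM in MV and 9.55 to 21.9 (median 18.3) CPM in the paired TV libraries (log2 fold change -3.89, SE 0.19, adjusted p = 0.000104 in edgeR). Next came PDE1A, a calcium-dependent phosphodiesterase, with 21.3 to 37.1 (median 34.5) and 50.9 to 107 (median 93.2) CPM (log2 fold change -1.45, SE 0.07, adjusted p = 0.000104 in edgeR). SORBS2, an adaptor protein of the Z-disc, had 60.2 to 135 (median 123) and 270.6 to 777 (median 436) CPM (log2 fold change -2.05, SE 0.11, adjusted p = 0.000104 in edgeR). Each was lower in every MV library than in every paired TV library, and L168 was on the MV side. VLDLR, the very-low-density lipoprotein receptor, was 9.98-fold higher in TV, PPARGC1A, the coactivator of mitochondrial biogenesis, 5.18-fold, LRRC2 9.47-fold and LNP1 18.3-fold. USP28, the cadherins FAT3 and DCHS2, GASK1B and BCHE, the plasma cholinesterase, were 2.54-fold (DCHS2) to 5.21-fold (FAT3) higher. Among genes without a symbol, ENSOCUG00000016320 and ENSOCUG00000011697 were higher in MV (log2 fold changes 1.002 and 1.80), and ENSOCUG00000003516 and ENSOCUG00000006737 in TV (-1.88 and -1.64).

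**Figure D1:**
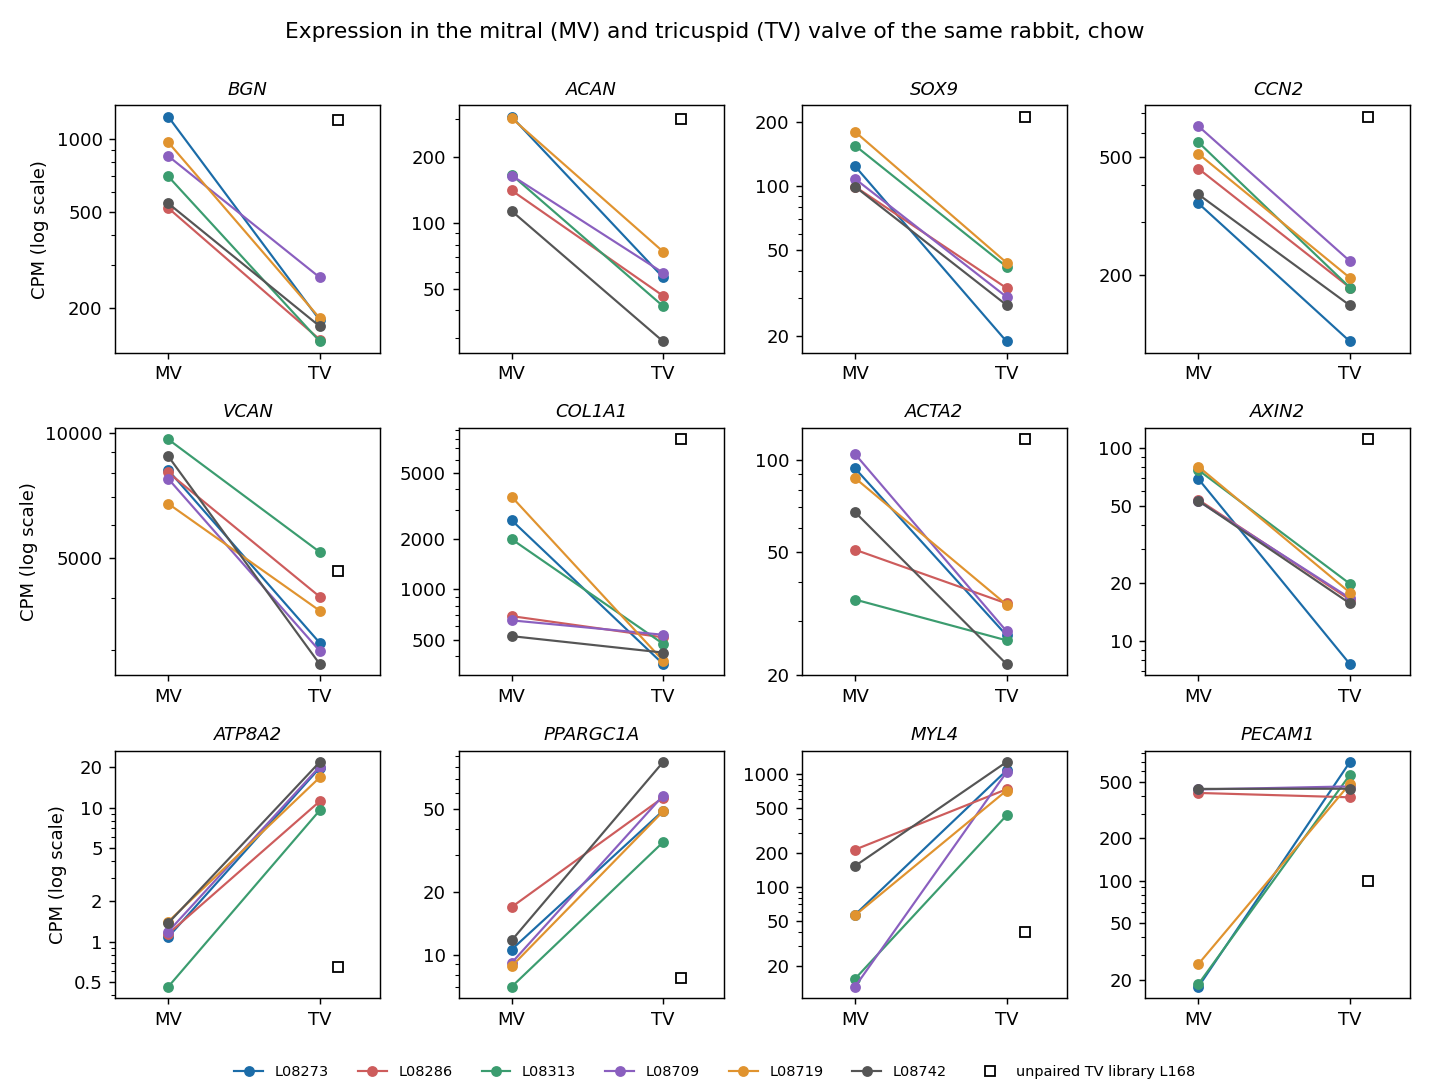
CPM on a log axis of 12 genes in MV and TV, with 1 coloured line per rabbit joining its MV to its TV and an open square for the unpaired TV library L168. All 6 lines fall for BGN, ACAN, SOX9, CCN2, VCAN and AXIN2 and rise for ATP8A2, PPARGC1A and MYL4, while 3 MV libraries lie near 20 CPM of PECAM1 and high in COL1A1, and L168 sits on the MV side of most panels.

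Genes of heart patterning differed in both directions. Of all tested genes, 20.6% were DEGs higher in MV and 8.88% DEGs higher in TV. Of the left-right and chamber patterning list, 2 of 17 tested genes were DEGs higher in MV and 5 were DEGs higher in TV (median log2 fold change -0.31). Among the 5 higher in TV were SMYD1, a methyltransferase of muscle sarcomeres (log2 fold change -4.12, SE 0.31, adjusted p = 0.000188 in edgeR), and MEF2C, a myogenic transcription factor (log2 fold change -0.95, SE 0.14, adjusted p = 0.00173 in edgeR). TBX5, a T-box factor of the atria and conduction system, was at 26.7 to 45.0 (median 33.9) CPM in MV and 38.9 to 108 (median 57.7) CPM in TV (log2 fold change -0.88, SE 0.22, adjusted p = 0.0146 in edgeR), with overlapping ranges, and was no longer a DEG in 5 of 26 alternatives, the plate 1 pairs among them. HAND2 and HAND1, basic helix-loop-helix factors of ventricular development, had log2 fold changes of 0.23 ± 0.14 and -0.53 ± 0.49 (± SE here and below, edgeR adjusted p = 0.212 and 0.394) and were not DEGs. BMP10, SHOX2 and ISL1 stayed under the filter, with at most 32, 4 and 7 counts in any of the 13 libraries. IRX4 and TBX3 have no symbol in the files, and NODAL had 0 counts throughout. GATA4 and NKX2-5, cardiac factors chosen after their values were seen, went opposite ways (0.91 ± 0.21 and -2.51 ± 0.43). Of the positional and mesenchymal transcription factors, 4 of 11 tested genes were DEGs higher in MV and 1 was a DEG higher in TV (median log2 fold change 0.45), led by PRRX1, a factor of connective tissue mesenchyme (log2 fold change 1.03, SE 0.08, adjusted p = 0.000183 in edgeR). PDLIM3 and FOXP2 of that list differed by 0.68 ± 0.09 and -0.99 ± 0.15, and PDLIM3 lost its call in 3 of 26 alternatives, the plate 1 pairs among them. PDLIM3 is a protein of the cytoskeleton and not a transcription factor, but is counted among the 4 higher in MV.

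DEGs of the extracellular matrix were mostly higher in MV, except in the basement membrane list. Of the fibrillar and associated collagens, 13 of 22 tested genes were DEGs higher in MV and 0 were DEGs higher in TV (median log2 fold change 0.93), as compared to 20.6% and 8.88% of all tested genes, and their summed level was 9390 to 11087 CPM in the paired TV libraries and 29644 CPM in L168. In MV the sum was 17925, 18839 and 20237 CPM in the libraries of rabbits L08273, L08313 and L08719 and 14170, 13853 and 14058 CPM in those of L08286, L08742 and L08709, so that all 6 were above the paired TV libraries and the first 3 furthest. COL5A2, which nucleates collagen fibrils, was at 1006 to 1285 (median 1125) CPM in MV and 556 to 736 (median 677) CPM in TV (log2 fold change 0.79, SE 0.06, adjusted p = 0.000186 in edgeR). COL8A1, a short-chain collagen made by vascular and valve cells, was at 107 to 194.97 (median 183.02) and 36.9 to 94.3 (median 80.9) CPM (log2 fold change 1.17, SE 0.11, adjusted p = 0.000248 in edgeR). The groups did not overlap in either gene. COL1A1, the main chain of type I collagen, was at 2597, 1999 and 3593 CPM in the MV of rabbits L08273, L08313 and L08719, and at 691, 524 and 652 CPM in the other 3. In the paired TV libraries it was at 357 to 534 (median 445) CPM and in L168 at 7929.6 CPM (log2 fold change 1.53, SE 0.49, adjusted p = 0.0345 in edgeR). The first 3 MV libraries thus stood far above TV and the others close to it, and COL1A1 was not a DEG once any one of the 3 high pairs was left out, and lost its call in 10 of 26 alternatives in all. COL2A1, the collagen of cartilage, was low in both valves, with 0.981 to 7.48 (median 3.57) CPM in MV and 0.808 to 2.09 (median 0.972) CPM in TV (log2 fold change 1.502, SE 0.37, adjusted p = 0.0130 in edgeR).

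Proteoglycans followed, of which 13 of 31 tested genes were DEGs higher in MV and 4 were DEGs higher in TV (median log2 fold change 0.43). Among all tested genes the shares were 20.6% and 8.88%. VCAN, the large proteoglycan of the spongiosa, was at 6748 to 9638 (median 8074) CPM in MV and 2773 to 5162 (median 3423) CPM in TV (log2 fold change 1.19, SE 0.12, adjusted p = 0.000310 in edgeR). ACAN, the large proteoglycan of cartilage and of tissue under compression, was at 114 to 307 (median 165.9) and 28.9 to 74.2 (median 51.6) CPM (log2 fold change 1.92, SE 0.12, adjusted p = 0.000154 in edgeR). BGN, a small leucine-rich proteoglycan that binds collagen, was at 517 to 1233 (median 773) and 146 to 267.4 (median 173.1) CPM (log2 fold change 2.10, SE 0.16, adjusted p = 0.000188 in edgeR). None of the 6 MV libraries reached down to a paired TV library in these genes. HAS2, which makes hyaluronan, differed less, with 57.2 to 105.5 (median 68.8) CPM in MV and 23.8 to 56.0 (median 43.1) CPM in TV (log2 fold change 0.85, SE 0.15, adjusted p = 0.00311 in edgeR). SPOCK3, a testican chosen after its values were seen, went the other way (log2 fold change -4.67, SE 0.82, adjusted p = 0.00373 in edgeR). Of the elastic fibre genes, 9 of 19 tested genes were DEGs higher in MV and 0 were DEGs higher in TV (median log2 fold change 0.52). Members with the smallest p were LOXL3 and LOXL4, lysyl oxidases that cross-link elastin and collagen, and TGFBI, a matrix protein induced by TGF-beta, with log2 fold changes of 1.47, 1.18 and 1.198 (SE 0.12, 0.15 and 0.11). LTBP2, a latent TGF-beta binding protein chosen after its values were seen, was at 205 to 1266 (median 519.9) CPM in MV and 42.5 to 114 (median 71.8) CPM in TV, highest in the same 3 MV libraries as COL1A1. ELN itself has no symbol in the files.

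Matricellular proteins, which modulate how cells hold the matrix, gave 14 DEGs higher in MV and 1 higher in TV among 23 tested genes (median log2 fold change 0.76). For this list and those below, the shares among all tested genes were 20.6% and 8.88%. Apart from CCN2, MATN2, a matrilin, was at 389 to 499 (median 435) CPM in MV and 197.9 to 273.5 (median 248.6) CPM in TV (log2 fold change 0.84, SE 0.07, adjusted p = 0.000196 in edgeR). SPP1, osteopontin, was at 80.6 to 134 (median 109) and 33.5 to 60.9 (median 44.5) CPM (log2 fold change 1.21, SE 0.11, adjusted p = 0.000206 in edgeR). POSTN, periostin, was at 2567 to 4349 (median 3054) and 1075 to 2994 (median 1978) CPM (log2 fold change 0.77, SE 0.13, adjusted p = 0.00239 in edgeR). The valves did not overlap in MATN2 and SPP1 and overlapped in POSTN. In the cartilage and bone list 11 of 20 tested genes were DEGs higher in MV and 0 were DEGs higher in TV (median log2 fold change 0.96). SOX9, the chondrogenic transcription factor that valve interstitial cells share, was at 99.4 to 179.7 (median 116) CPM in MV and 18.8 to 43.8 (median 31.8) CPM in TV (log2 fold change 1.98, SE 0.14, adjusted p = 0.000157 in edgeR), and RUNX1 differed by 1.81 ± 0.16. Proteases and their inhibitors included 10 DEGs higher in MV and 3 higher in TV among 25 tested genes (median log2 fold change 0.35). MMP2, gelatinase A, was 2.42-fold, PLAT, tissue plasminogen activator, 6.05-fold and SERPINE2, an inhibitor of thrombin and plasminogen activators, 4.65-fold higher in MV (SE 0.08, 0.27 and 0.15 on the log2 scale). MMP7, MMP8 and MMP10 had 0 counts in the 13 libraries. Basement membrane genes were split, with 4 DEGs higher in MV and 4 higher in TV among 22 tested genes (median log2 fold change 0.42). LAMA2 and LAMB1, laminin chains, and FREM2 of the Fraser complex were higher in TV (-0.72, -0.61 and -2.27, edgeR adjusted p = 0.00108, 0.00100 and 0.000549), and LAMB1 lost its call without the pair of rabbit L08273 and without the block.

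The fibroblast and valve interstitial cell list gave 9 DEGs higher in MV and 0 higher in TV among 20 tested genes (median log2 fold change 0.52). Among all tested genes the shares were 20.6% and 8.88%, here and for the smooth muscle list below. VIM, the intermediate filament of mesenchymal cells, was at 7498 to 12447 (median 9056) CPM in MV and 3717 to 7798 (median 5591) CPM in TV (log2 fold change 0.82, SE 0.10, adjusted p = 0.000717 in edgeR), and FBLN1, fibulin-1, at 451 to 1055 (median 725) and 171.9 to 321 (median 218) CPM (log2 fold change 1.66, SE 0.22, adjusted p = 0.00116 in edgeR). FBLN1 was at 894, 1028 and 1055 CPM in the MV libraries that were high in COL1A1 and at 451, 489 and 556 CPM in the others. The FBLN1 ranges did not overlap, the VIM ranges did, and both genes were higher in MV in 6 of 6 pairs. PDGFRA has no symbol in the files. The smooth muscle and myofibroblast list went both ways, with 6 DEGs higher in MV and 7 higher in TV among 19 tested genes (median log2 fold change 0.35). ACTA2, the actin of smooth muscle and activated interstitial cells, was higher in MV, at 35.1 to 104 (median 77.4) CPM as compared to 21.7 to 34.1 (median 27.3) CPM in TV (log2 fold change 1.29, SE 0.22, adjusted p = 0.00304 in edgeR). MYH11, the smooth muscle myosin heavy chain, was lower in MV, at 23.1 to 54.3 (median 37.0) CPM as compared to 43.4 to 96.4 (median 56.5) CPM (log2 fold change -0.70, SE 0.09, adjusted p = 0.00106 in edgeR), and lost its call in 4 of 26 alternatives, such as without the block (edgeR adjusted p at most 0.245). The lowest p in this list belonged to PLN, TPM1 and MYOCD, which heart muscle also expresses and which were all higher in TV (-3.53, -2.17 and -2.62, edgeR adjusted p = 0.000183, 0.000201 and 0.000284).

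**Figure D2:**
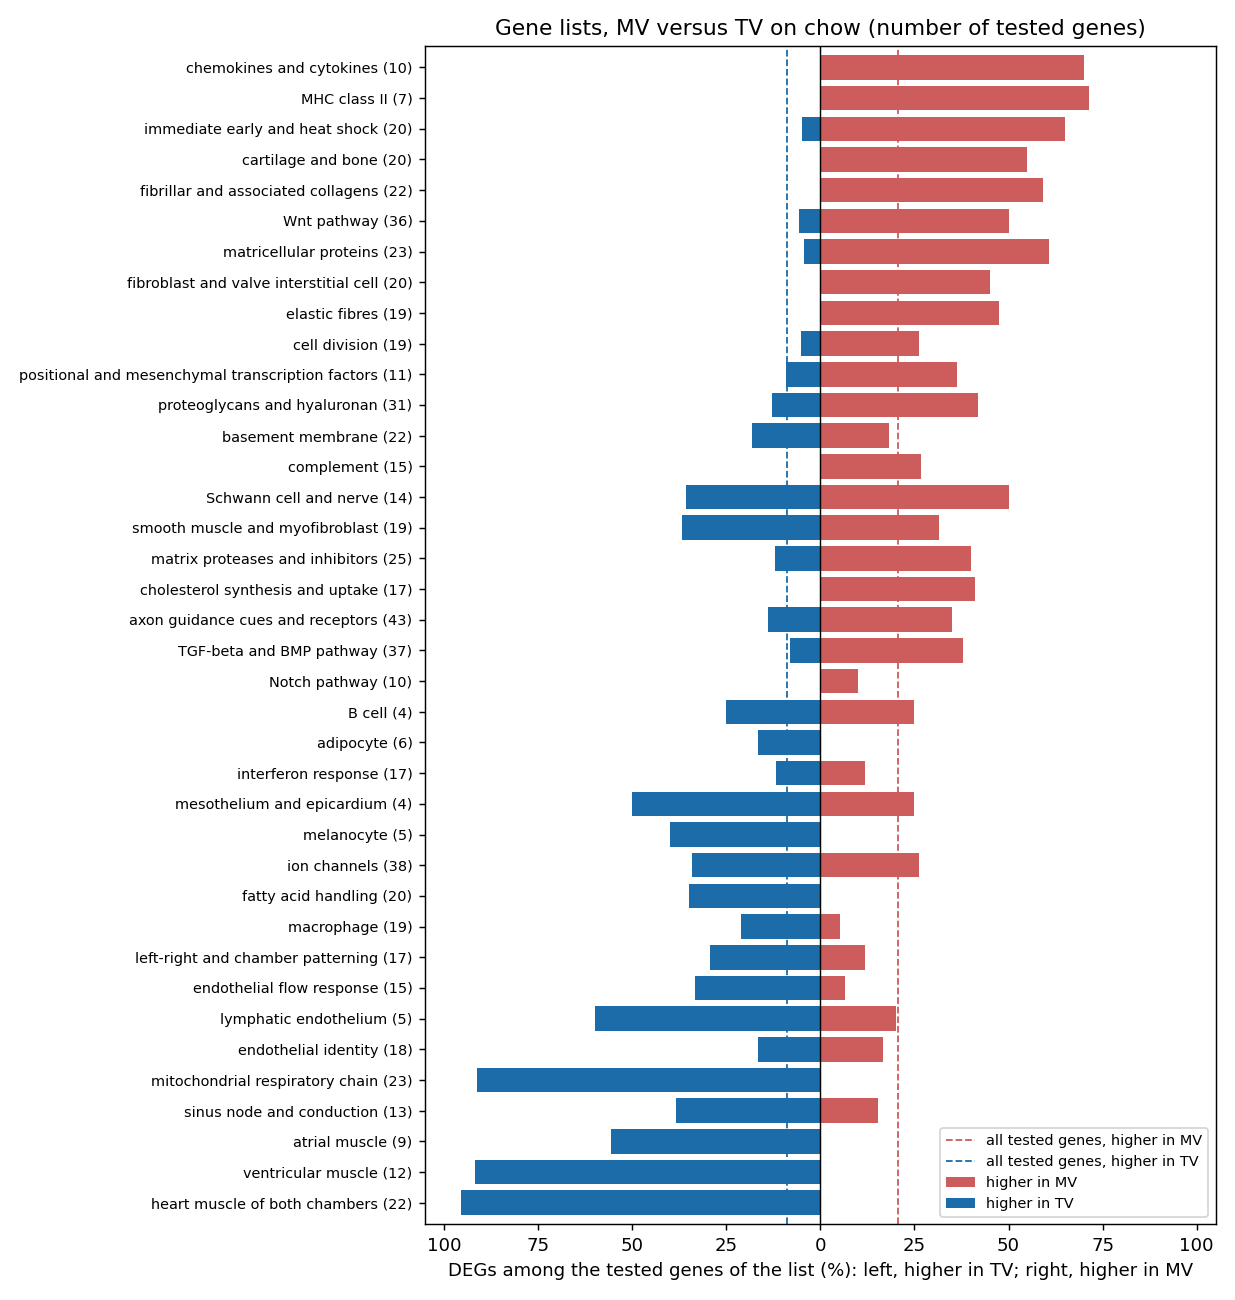
Share in percent of the tested genes of each list that were DEGs, with bars to the right for genes higher in MV and to the left for genes higher in TV, the number of tested genes in brackets, and dashed lines at the shares among all tested genes (20.6% and 8.88%). Lists are ordered by their median log2 fold change and the 4 with fewer than 4 tested genes are not drawn. Muscle and respiratory chain lists fill the left side, matrix, Wnt, chemokine and MHC class II lists the right side.

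Genes of heart muscle were higher in TV, with the largest median difference of the 42 lists. Of the heart muscle genes of both chambers, 0 of 22 tested genes were DEGs higher in MV and 21 were DEGs higher in TV (median log2 fold change -3.81), as compared to 8.88% of all tested genes that were higher in TV. Their summed level was 174.1 to 1614 CPM in MV (median 745), 5749 to 20058 CPM in the paired TV libraries (median 8370) and 361 CPM in L168. The lowest paired TV library was thus above the highest MV library, and L168 was within the MV range. TCAP had 0 counts in the 13 libraries. In bulk tissue, more muscle cells and more muscle RNA per cell cannot be told apart, and the same holds for each cell type below. The part of these transcripts in the other differences was not tested.

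CORIN, the protease that activates the atrial natriuretic peptide, was at 6.95 to 15.5 (median 9.38) CPM in MV and 59.6 to 180.6 (median 88.2) CPM in TV (log2 fold change -3.28, SE 0.23, adjusted p = 0.000182 in edgeR). TRDN, triadin of the calcium release complex, was at 2.67 to 30.7 (median 7.13) and 101.4 to 308 (median 147) CPM (log2 fold change -4.34, SE 0.34, adjusted p = 0.000196 in edgeR). MYOM1, myomesin of the M-band, was at 11.2 to 113 (median 41.7) and 416 to 1484 (median 620.1) CPM (log2 fold change -4.03, SE 0.32, adjusted p = 0.000196 in edgeR). None of these ranges overlapped. The atrial muscle list had 0 DEGs higher in MV and 5 higher in TV among 9 tested genes (median log2 fold change -2.13). Among all tested genes, 20.6% were higher in MV and 8.88% higher in TV. MYL4, the atrial essential light chain, was at 13.02 to 214 (median 56.2) CPM in MV and 428 to 1275 (median 884) CPM in TV (log2 fold change -3.95, SE 0.58, adjusted p = 0.00172 in edgeR), and MYBPHL, a myosin-binding protein of the atria, at 1.03 to 4.53 (median 2.21) and 16.9 to 66.2 (median 41.9) CPM (log2 fold change -4.07, SE 0.33, adjusted p = 0.000205 in edgeR). NPPA, the atrial natriuretic peptide, varied within both valves, at 0.951 to 20.9 (median 7.62) and 4.61 to 132 (median 30.5) CPM with overlapping ranges (log2 fold change -2.42, SE 0.59, adjusted p = 0.0128 in edgeR), and lost its call in 5 of 26 alternatives, such as the plate 1 pairs and without the MV library L156. In the ventricular muscle list 0 of 12 tested genes were DEGs higher in MV and 11 were DEGs higher in TV (median log2 fold change -3.51). MYL2, the ventricular regulatory light chain, was at 3.95 to 152.6 (median 38.1) CPM in MV and 556 to 3263 (median 812) CPM in TV (log2 fold change -5.23, SE 1.11, adjusted p = 0.00768 in edgeR), and MYL3 at 1.80 to 58.3 (median 13.4) and 121 to 823 (median 195.3) CPM (log2 fold change -4.34, SE 0.93, adjusted p = 0.00813 in edgeR). Both ventricular light chains were highest in the TV library L243. FHL2, a LIM protein of the sarcomere, and MYLK3, the cardiac light chain kinase, differed by -1.61 ± 0.12 and -3.49 ± 0.31. The pacemaker and conduction list gave 2 DEGs higher in MV and 5 higher in TV among 13 tested genes (median log2 fold change -1.61). CACNA1D, the L-type calcium channel of pacemaker cells, was at 2.62 to 5.72 (median 4.04) CPM in MV and 16.8 to 69.2 (median 43.8) CPM in TV (log2 fold change -3.37, SE 0.25, adjusted p = 0.000183 in edgeR). RGS6, which ends muscarinic signalling, and KCNJ3, a subunit of the acetylcholine-activated potassium channel, differed by -3.74 ± 0.34 and -4.22 ± 0.46. HCN4, the pacemaker channel, was at 0.0551 to 1.84 (median 0.512) CPM in MV and 0.858 to 3.48 (median 1.57) CPM in TV and was not a DEG (edgeR adjusted p = 0.0698), although it was one without the pair of rabbit L08719 and with DESeq2 (-1.73, DESeq2 adjusted p = 0.0186). MYL7 and TNNT2 have no symbol in the files.

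Genes of the respiratory chain were mostly higher in TV, like the muscle genes, and whether both vary together between libraries was not tested. Of the respiratory chain list, 0 of 23 tested genes were DEGs higher in MV and 21 were DEGs higher in TV (median log2 fold change -1.28), and its summed level was 1297 to 1754 CPM in MV, 2872 to 6270 CPM in the paired TV libraries and 1147 CPM in L168. NDUFS1 of complex I was at 38.9 to 67.8 (median 54.7) CPM in MV and 109 to 200.8 (median 135) CPM in TV (log2 fold change -1.37, SE 0.10, adjusted p = 0.000170 in edgeR). ATP5F1A, the alpha subunit of ATP synthase, was at 209 to 328 (median 253) and 584 to 1274 (median 699) CPM (log2 fold change -1.57, SE 0.12, adjusted p = 0.000183 in edgeR), and NDUFV2 differed by -1.15 ± 0.09. The valves did not overlap in these genes, and the TV library L243, the highest in heart muscle, was also the highest in the summed respiratory chain. For fatty acid handling, 0 of 20 tested genes were DEGs higher in MV and 7 were DEGs higher in TV (median log2 fold change -0.21). This is 35% called, as compared to 29.5% of all tested genes. PPARGC1A was at 7.03 to 17.0 (median 9.88) CPM in MV and 34.7 to 84.2 (median 53.0) CPM in TV (log2 fold change -2.37, SE 0.15, adjusted p = 0.000126 in edgeR), and ACADM and HADHA, enzymes of beta-oxidation, differed by -1.39 ± 0.13 and -0.68 ± 0.08.

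**Figure D3:**
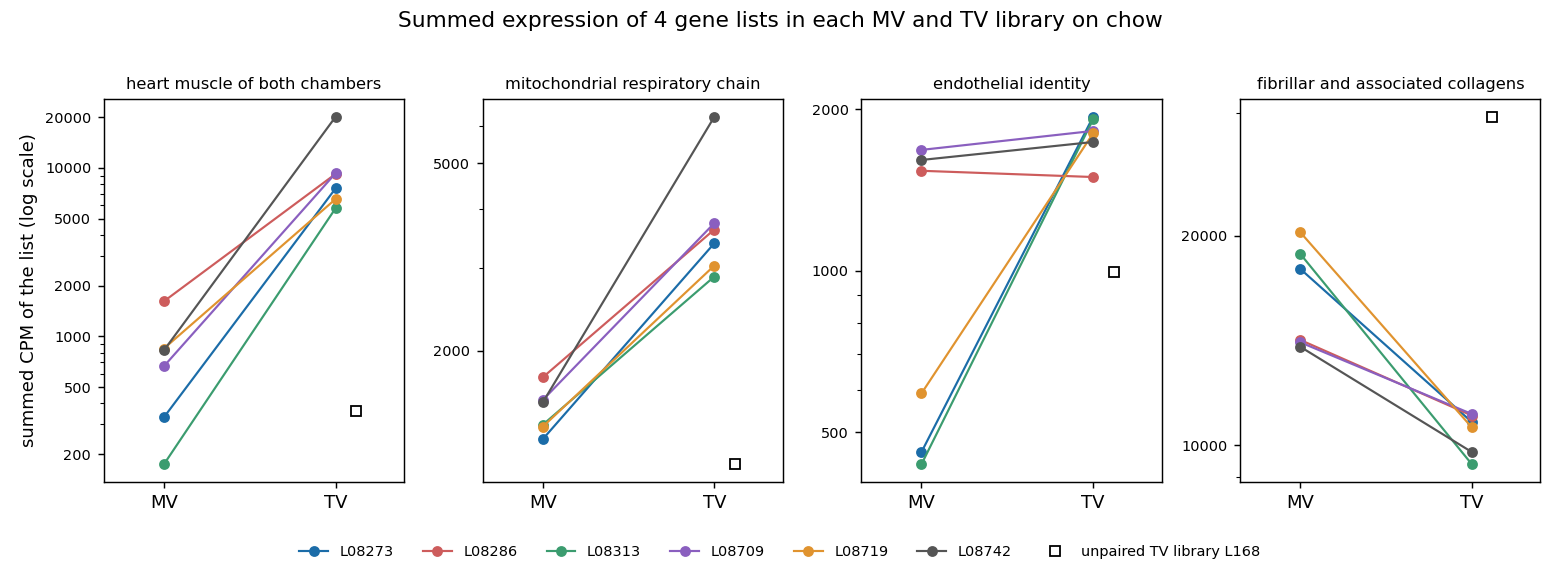
Summed CPM on a log axis of 4 gene lists in each library, with 1 coloured line per rabbit joining MV to TV and an open square for the unpaired TV library L168. Heart muscle rises in all 6 pairs from at most 1614 CPM in MV to at least 5749 CPM in TV and the respiratory chain also rises in all 6, collagens fall, and the endothelial list splits the MV libraries into 3 low and 3 high ones.

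Endothelial genes varied widely among the MV libraries. PECAM1, the endothelial adhesion molecule CD31, was at 17.8, 18.6 and 25.7 CPM in the MV of rabbits L08273, L08313 and L08719 and at 419.7, 444 and 448 CPM in the MV of L08286, L08709 and L08742. In the paired TV libraries it was at 391 to 695 (median 477) CPM and in L168 at 100.4 CPM, and PECAM1 was not a DEG (log2 fold change -2.35, SE 1.10, adjusted p = 0.112 in edgeR). It was a DEG, lower in MV, with DESeq2 (-2.39, DESeq2 adjusted p = 0.0159) and with the 4 treatments in 1 model (-2.36, edgeR adjusted p = 0.0334), and its edgeR adjusted p over the edgeR alternatives was at most 0.554. The 3 MV libraries low in PECAM1 were those high in COL1A1. They were also the 3 MV libraries highest in LTBP2 (915, 664 and 1266 CPM as compared to 223, 376 and 205 CPM) and in the Wnt feedback inhibitors AXIN2 and NKD1, and the 3 lowest in the respiratory chain sum (1297, 1391 and 1378 CPM as compared to 1754, 1570.3 and 1552 CPM). OSBP2, SOX9, TGFB3, FOSL2, OAS3 and TAL1, among others, were highest in the same 3 MV libraries too, whereas VCAN and CCN2, among others, were not. CDH5, VWF and TEK, endothelial genes chosen after their values were seen, showed the same division of the MV libraries, with CDH5 at 6.69, 7.75 and 10.9 CPM in the low 3 and 60.8, 69.6 and 71.4 CPM in the others. Their log2 fold changes were -1.83 ± 0.69, -1.25 ± 0.50 and -2.08 ± 0.78, and none was a DEG. DEGs made up 33.3% of the tested endothelial list, as compared to 29.5% of all tested genes. Over the endothelial list, 3 of 18 tested genes were DEGs higher in MV and 3 were DEGs higher in TV (median log2 fold change -1.11), and its summed level was 436 to 1679 CPM in MV, 1495 to 1935 CPM in the paired TV libraries and 995 CPM in L168. The sum was lower in MV in 5 of 6 pairs. CD34, which fibroblasts share, was higher in MV at 192.7 to 268.4 (median 257.6) CPM as compared to 118 to 157.4 (median 126) CPM in TV (log2 fold change 0.85, SE 0.08, adjusted p = 0.000268 in edgeR), as was TAL1 (1.34 ± 0.22). NPR3, the natriuretic peptide clearance receptor of the endocardium, was lower in MV at 9.21 to 18.8 (median 10.9) CPM as compared to 25.04 to 50.7 (median 47.3) CPM (log2 fold change -1.86, SE 0.21, adjusted p = 0.000561 in edgeR). What part the endothelial share of a library had in its collagen level was not tested.

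For the next 2 lists, the shares among all tested genes were 20.6% higher in MV and 8.88% higher in TV. The flow response list gave 1 DEG higher in MV and 5 higher in TV among 15 tested genes (median log2 fold change -0.75). Its summed level was 657, 632 and 678 CPM in the 3 MV libraries low in PECAM1, 1035, 1195 and 1151 CPM in the other 3 and 1113 to 1405 CPM in the paired TV libraries. TXNIP, which binds thioredoxin, was at 108 to 236.3 (median 169.96) CPM in MV and 239.9 to 424 (median 340.4) CPM in TV (log2 fold change -1.001, SE 0.10, adjusted p = 0.000320 in edgeR), and the ranges did not overlap. CAV1, caveolin-1, was also lower in MV (log2 fold change -1.11, SE 0.16, adjusted p = 0.00140 in edgeR), and ICAM1, the leukocyte adhesion molecule, was higher (log2 fold change 1.54, SE 0.20, adjusted p = 0.000940 in edgeR). TXNIP and CAV1 were lowest in the same 3 MV libraries, CAV1 with 120.3, 114 and 90.2 CPM as compared to 174.9, 194.5 and 175.8 CPM, and the part of these libraries in the differences was not tested. KLF2 has no symbol in the files. Of the lymphatic endothelial markers, 1 of 5 tested genes was a DEG higher in MV and 3 were DEGs higher in TV (median log2 fold change -0.90). PROX1, the lymphatic and valve endothelial homeobox factor, was at 22.8 to 89.3 (median 60.1) CPM in MV and 88.8 to 146 (median 117) CPM in TV (log2 fold change -1.21, SE 0.20, adjusted p = 0.00264 in edgeR), and MMRN1 differed by -0.90 ± 0.22. FLT4, the VEGF-C receptor, was higher in MV (log2 fold change 1.04, SE 0.18, adjusted p = 0.00298 in edgeR). MMRN1 and FLT4 lost their calls in 4 and 3 of 26 alternatives, such as without the block (edgeR adjusted p at most 0.463 and 0.586). The PROX1 ranges overlapped slightly, and the lowest PROX1 and MMRN1 values were in the 3 MV libraries low in PECAM1.

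Nerve and pigment cell markers differed without a common direction. For the lists of this paragraph, the shares among all tested genes were 20.6% higher in MV and 8.88% higher in TV. In the Schwann cell and nerve list 7 of 14 tested genes were DEGs higher in MV and 5 were DEGs higher in TV (median log2 fold change 0.38). NEFL, the neurofilament light chain, was at 3.33 to 8.86 (median 5.82) CPM in MV and 38.8 to 210.4 (median 93.0) CPM in TV (log2 fold change -4.08, SE 0.35, adjusted p = 0.000254 in edgeR). SCN7A, a sodium channel of glia, was at 2.73 to 6.33 (median 5.51) and 21.5 to 54.6 (median 26.6) CPM (log2 fold change -2.60, SE 0.21, adjusted p = 0.000196 in edgeR). No MV library reached a paired TV library in either gene, and L168 was at 13.5 and 2.60 CPM. Of the 7 members higher in MV, chosen after their values were seen, ERBB3, the neuregulin receptor of Schwann cells, was at 76.2 to 171.2 (median 81.1) and 41.8 to 66.1 (median 52.1) CPM (log2 fold change 0.88, SE 0.12, adjusted p = 0.00125 in edgeR), without overlap. S100B, a calcium-binding protein of glia, was at 70.4 to 234.3 (median 159.9) and 52.4 to 169.1 (median 109.7) CPM, with overlap (log2 fold change 0.62, SE 0.10, adjusted p = 0.00207 in edgeR). Melanocyte markers gave 0 DEGs higher in MV and 2 higher in TV among 5 tested genes (median log2 fold change -0.17), namely MITF (log2 fold change -0.90, SE 0.15, adjusted p = 0.00256 in edgeR) and MLANA (log2 fold change -1.82, SE 0.62, adjusted p = 0.0425 in edgeR), and MLANA lost its call in 11 of 26 alternatives, such as without any of 4 of the 6 pairs. The adipocyte list gave 0 DEGs higher in MV and 1 higher in TV among 6 tested genes (median log2 fold change 0.10), LPL, lipoprotein lipase (log2 fold change -1.66, SE 0.44, adjusted p = 0.0173 in edgeR), which lost its call in 7 of 26 alternatives, such as the plate 1 pairs and without the MV library L156. Mesothelial and epicardial markers gave 1 DEG higher in MV and 2 higher in TV among 4 tested genes (median log2 fold change -0.15). ALDH1A2, which makes retinoic acid, was at 8.06 to 42.8 (median 24.5) CPM in MV and 37.6 to 62.2 (median 46.0) CPM in TV (log2 fold change -1.18, SE 0.33, adjusted p = 0.0211 in edgeR). TBX18 was higher in MV (log2 fold change 0.62, SE 0.22, adjusted p = 0.0489 in edgeR) and WT1 lower (log2 fold change -0.91, SE 0.33, adjusted p = 0.0495 in edgeR), and these 3 lost their calls in 10, 18 and 17 of 26 alternatives, such as when single pairs were left out.

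Macrophage genes were called no more often than other genes. Of the macrophage list, 1 of 19 tested genes was a DEG higher in MV and 4 were DEGs higher in TV (median log2 fold change -0.22), or 26.3% as compared to 29.5% of all tested genes (20.6% higher in MV and 8.88% higher in TV), with a summed level of 362, 355 and 328 CPM in the 3 MV libraries low in PECAM1, 879, 763 and 862 CPM in the other 3 and 728 to 1006 CPM in the paired TV libraries. The other 3 MV libraries thus lay within the TV range. CD163, the haemoglobin scavenger receptor of resident macrophages, was at 12.5 to 55.0 (median 31.5) CPM in MV and 73.4 to 121 (median 82.7) CPM in TV (log2 fold change -1.69, SE 0.38, adjusted p = 0.00942 in edgeR), and VSIG4, a complement receptor of the same cells, at 10.1 to 39.3 (median 25.1) and 38.8 to 64.4 (median 52.6) CPM (log2 fold change -1.24, SE 0.25, adjusted p = 0.00669 in edgeR). CD163 was lowest, at 16.4, 13.2 and 12.5 CPM, in the MV libraries low in PECAM1, and so was VSIG4, at 14.3, 18.9 and 10.1 CPM. GPNMB, a lysosomal protein of lipid-laden macrophages, was higher in MV (log2 fold change 0.999, SE 0.27, adjusted p = 0.0171 in edgeR) and lost its call in 4 of 26 alternatives, such as without the pair of L08313. CD68, the pan-macrophage marker, was at 14.2 to 28.5 (median 20.7) CPM in MV and 13.3 to 25.2 (median 15.5) CPM in TV and did not reach the fold threshold (log2 fold change 0.33, SE 0.11, adjusted p = 0.0379 in edgeR). The antigen-presenting genes of MHC class II were higher in MV, with 5 DEGs higher in MV and 0 higher in TV among 7 tested genes (median log2 fold change 1.30). CD74, the invariant chain, was at 119 to 341 (median 197.8) CPM in MV and in TV at a median of 94.1 CPM with a lowest value of 45.9 CPM (log2 fold change 1.18, SE 0.08, adjusted p = 0.000157 in edgeR). HLA-DRA was at 18.004 to 82.6 (median 46.7) and 7.78 to 45.0 (median 21.6) CPM (log2 fold change 0.99, SE 0.18, adjusted p = 0.00413 in edgeR), and HLA-DMA differed by 1.30 ± 0.22. CD74 and HLA-DRA overlapped between the valves as groups but were higher in MV in 6 of 6 pairs. Lymphocyte, granulocyte, mast and red blood cell markers were near the filter. Of T and NK cells, 0 of 2 tested genes were DEGs higher in MV and 0 were DEGs higher in TV (median log2 fold change 0.15), of B cells 1 of 4 tested genes was a DEG higher in MV and 1 was a DEG higher in TV (median log2 fold change 0.24), of neutrophils 0 of 2 tested genes were DEGs higher in MV and 0 were DEGs higher in TV (median log2 fold change -0.57), of mast cells 0 of 1 tested gene were DEGs higher in MV and 0 were DEGs higher in TV (median log2 fold change 0.04) and of red blood cells 0 of 2 tested genes were DEGs higher in MV and 0 were DEGs higher in TV (median log2 fold change 0.04). The B cell DEGs were PAX5 (3.49 ± 0.49), at most 5.65 CPM in any MV library, and JCHAIN (-1.71 ± 0.33).

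Complement genes, made by fibroblasts among others, gave 4 DEGs higher in MV and 0 higher in TV among 15 tested genes (median log2 fold change 0.40), or 26.7% called as compared to 29.5% of all tested genes. C1R and C1S, the proteases of the first component, were at 462 to 831 (median 650.2) and 468 to 728 (median 605) CPM in MV as compared to 146 to 349 (median 310.3) and 219.9 to 456 (median 250.2) CPM in TV (1.31 ± 0.15 and 1.04 ± 0.12). MASP1 of the lectin pathway differed by 0.72 ± 0.09. Of chemokines and cytokines, 7 of 10 tested genes were DEGs higher in MV and 0 were DEGs higher in TV (median log2 fold change 1.67). IL16, a T cell attractant, was at 55.8 to 114 (median 69.7) CPM in MV and 15.002 to 27.4 (median 24.7) CPM in TV (log2 fold change 1.72, SE 0.17, adjusted p = 0.000339 in edgeR), IL34, a ligand of the CSF1 receptor, at 5.18 to 15.5 (median 6.51) and 0.994 to 4.02 (median 2.199) CPM (log2 fold change 1.70, SE 0.28, adjusted p = 0.00246 in edgeR), and CX3CL1, fractalkine, at 5.12 to 15.5 (median 9.38) and 2.31 to 4.32 (median 2.72) CPM (log2 fold change 1.64, SE 0.30, adjusted p = 0.00382 in edgeR). The valves did not overlap in these 3 ligands. All 3 were highest in the 3 MV libraries low in PECAM1. IL34 was at 8.50, 7.08 and 15.5 CPM in these and at 5.18, 5.18 and 5.94 CPM in the other MV libraries. The interferon response list gave 2 DEGs higher in MV and 2 higher in TV among 17 tested genes (median log2 fold change -0.05), with IFIT2 lower in MV (-0.65, a call lost in 7 of 26 alternatives, such as the plate 1 pairs and without the pair of rabbit L08742) and OAS3 and DHX58 higher (1.89 and 0.95, the latter call lost in 3 of 26 alternatives).

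Of 4 signalling lists, the share of DEGs higher in MV was largest in the Wnt list, as compared to 20.6% higher in MV and 8.88% higher in TV of all tested genes. In the Wnt list, 18 of 36 tested genes were DEGs higher in MV and 2 were DEGs higher in TV (median log2 fold change 0.79). AXIN2 and NKD1 are feedback inhibitors that canonical Wnt signalling induces. AXIN2 was at 53.1 to 80.1 (median 61.5) CPM in MV and 7.59 to 19.8 (median 16.5) CPM in TV (log2 fold change 2.06, SE 0.20, adjusted p = 0.000327 in edgeR), and NKD1 at 46.6 to 114 (median 70.0) and 9.14 to 29.2 (median 16.9) CPM (log2 fold change 2.07, SE 0.22, adjusted p = 0.000452 in edgeR). LEF1, a transcription factor of the pathway, was at 60.5 to 107 (median 84.3) and 35.1 to 68.4 (median 38.4) CPM (log2 fold change 0.92, SE 0.10, adjusted p = 0.000509 in edgeR). AXIN2 and NKD1 did not overlap and LEF1 did. In the TGF-beta and BMP list, which holds ligands, receptors, SMADs and antagonists, 14 of 37 tested genes were DEGs higher in MV and 3 were DEGs higher in TV (median log2 fold change 0.28). The ligand TGFB3 was at 136 to 221 (median 152.2) CPM in MV and 71.0 to 103 (median 83.4) CPM in TV (log2 fold change 0.94, SE 0.09, adjusted p = 0.000243 in edgeR). SMAD3, a transducer of TGF-beta, and ID1, a target of BMP signalling, differed by 1.34 ± 0.19 and 0.90 ± 0.15. GREM1 had 0 counts. Of the Notch list, 1 of 10 tested genes was a DEG higher in MV and 0 were DEGs higher in TV (median log2 fold change 0.26), the target HEYL (log2 fold change 1.66, SE 0.26, adjusted p = 0.00210 in edgeR). Axon guidance cues and receptors gave 15 DEGs higher in MV and 6 higher in TV among 43 tested genes (median log2 fold change 0.32). PLXNA2, a semaphorin receptor, was at 123 to 194.6 (median 151.5) CPM in MV and 55.6 to 91.6 (median 65.9) CPM in TV (log2 fold change 1.17, SE 0.07, adjusted p = 0.000126 in edgeR), EPHA3, an ephrin receptor, at 17.5 to 29.8 (median 24.4) and 7.14 to 14.3 (median 8.90) CPM (log2 fold change 1.33, SE 0.13, adjusted p = 0.000327 in edgeR), and the ligand SEMA4A at 5.54 to 9.37 (median 7.49) and 1.37 to 2.51 (median 1.68) CPM (log2 fold change 2.03, SE 0.21, adjusted p = 0.000372 in edgeR). All 3 were higher in each MV library than in each paired TV library. EPHA4, chosen after its values were seen, was the reverse, at 9.41 to 31.5 (median 15.4) CPM in MV and 81.1 to 149 (median 108) CPM in TV (log2 fold change -2.67, SE 0.28, adjusted p = 0.000467 in edgeR).

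The immediate early and heat shock list gave 13 DEGs higher in MV and 1 higher in TV among 20 tested genes (median log2 fold change 1.06). MYC was at 19.0 to 25.1 (median 23.4) CPM in MV and 9.32 to 13.9 (median 11.8) CPM in TV (log2 fold change 0.94, SE 0.11, adjusted p = 0.000559 in edgeR), and the transcription factors FOSL2 and NR4A1 differed by 1.95 ± 0.27 and 1.54 ± 0.22. Such genes respond within minutes to handling of fresh tissue, and times from excision to freezing are not given in the sources used here. Of the cell division genes, 5 of 19 tested genes were DEGs higher in MV and 1 was a DEG higher in TV (median log2 fold change 0.51), as compared to 20.6% and 8.88% of all tested genes. MCM2 and MCM5 of the replicative helicase were higher in MV (1.08 ± 0.13 and 1.10 ± 0.22) and KIF23, a kinesin of cytokinesis, was lower (-1.87 ± 0.26). MKI67 has no symbol in the files. In cholesterol synthesis and uptake 7 of 17 tested genes were DEGs higher in MV and 0 were DEGs higher in TV (median log2 fold change 0.35). FDPS, an enzyme of the pathway, was at 17.0 to 26.3 (median 17.8) CPM in MV and 8.91 to 14.3 (median 10.9) CPM in TV (log2 fold change 0.81, SE 0.10, adjusted p = 0.000683 in edgeR). The ion channel list gave 10 DEGs higher in MV and 13 higher in TV among 38 tested genes (median log2 fold change -0.17). Beside CACNA1D and SCN7A, CACNB2, an auxiliary subunit of calcium channels, was higher in TV at 59.1 to 124 (median 78.5) CPM as compared to 16.05 to 31.6 (median 23.1) CPM in MV (log2 fold change -1.81, SE 0.18, adjusted p = 0.000389 in edgeR).

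The comparison was repeated in the rabbits of the other treatments, which share no animal with Ctrl. MV and TV differed in 4037 genes on Lard (29% of 13933 tested, 22.4% higher in MV and 6.54% higher in TV). The count was 4068 on CHT (28.8% of 14140, 20.4% and 8.38%) and 4217 on IR/CHT (29.7% of 14185, 18% and 11.7%). Of the Ctrl DEGs tested in both, 3162 were DEGs with the same sign on Lard, which is 78.5% of those of Ctrl and 79.6% of those of Lard. On CHT there were 2572, which is 63.3% and 65.3%, and on IR/CHT 1889, which is 46.7% and 47.3%. DEGs with opposite signs numbered 0, 27 and 81. In all 4 treatments 1462 genes were DEGs with the same direction, 1163 higher in MV and 299 higher in TV. Whether the MV-TV difference itself changed was tested for Lard against Ctrl, where no gene passed an edgeR adjusted p of 0.05 (0% of 15890, with 306 at an unadjusted p under 0.05, also 0 without the rabbit in the model). It was not run without the MV and TV libraries on Lard that were nearest to another valve. For CHT and IR/CHT this test was not made, so that the differences between their counts and those of Ctrl are descriptions.

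Of the 137 genes named by rule, 132 were DEGs on Ctrl, and 106, 93 and 77 of them were DEGs with the same sign on Lard, CHT and IR/CHT. ACAN had log2 fold changes of 1.78 on Lard, 1.89 on CHT and 1.11 on IR/CHT, and AXIN2 of 1.81, 1.25 and 0.59, and both were DEGs in each. VCAN was a DEG on Lard (0.74) but not on CHT (0.21, edgeR adjusted p = 0.344) or IR/CHT (0.13, adjusted p = 0.519). VLDLR went from -3.32 on Ctrl to -2.56, -0.80 and 0.29. MYH11 was lower in MV on Ctrl (-0.70) and higher on CHT (3.47, edgeR adjusted p = 0.000688) and IR/CHT (2.90, adjusted p = 0.00232). MLANA did the same (2.60 and 2.95). The Ctrl calls of MYH11 and MLANA were lost in 4 and 11 of 26 alternatives.

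Counts by list are given for each treatment as descriptions. Among all tested genes, 20.6%, 22.4%, 20.4% and 18% were higher in MV and 8.88%, 6.54%, 8.38% and 11.7% higher in TV on Ctrl, Lard, CHT and IR/CHT. The macrophage list held 1 DEG higher in MV and 4 higher in TV of 19 on Ctrl, 1 and 2 on Lard, 12 and 2 on CHT and 12 and 1 on IR/CHT, with median log2 fold changes of -0.22, -0.10, 1.23 and 1.15. CD68 and GPNMB had log2 fold changes of 2.25 and 5.25 on CHT and of 2.94 and 6.04 on IR/CHT, each a DEG. Cell division genes higher in MV numbered 5 of 19 on Ctrl, 5 of 19 on Lard, 16 of 19 on CHT and 18 of 20 on IR/CHT (medians 0.51, 0.57, 1.86 and 1.81). Respiratory chain genes higher in TV numbered 21 of 23 on Ctrl, 20 on Lard, 15 on CHT and 1 on IR/CHT (medians -1.28, -0.86, -0.67 and -0.31). Heart muscle genes higher in TV numbered 21 of 22 on Ctrl, 11 on Lard, 13 on CHT and 20 on IR/CHT. Their median log2 fold changes were -3.81, -4.02, -2.35 and -2.46, so that the lower count on Lard went with a median as large as on Ctrl, and the 20 on IR/CHT with a smaller one. On Lard, the library labelled TV that was nearest to PV (L272) was at 87.4 CPM of these genes in sum and the other 6 at 2878 to 16297 CPM, and its part in the count was not tested. Collagens higher in MV numbered 13, 15, 12 and 9 of 22 in the same order (medians 0.93, 1.04, 0.86 and 0.67), and Wnt genes 18 of 36, 18 of 38, 8 of 37 and 4 of 37 (medians 0.79, 0.72, 0.22 and -0.06).

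**Figure D4:**
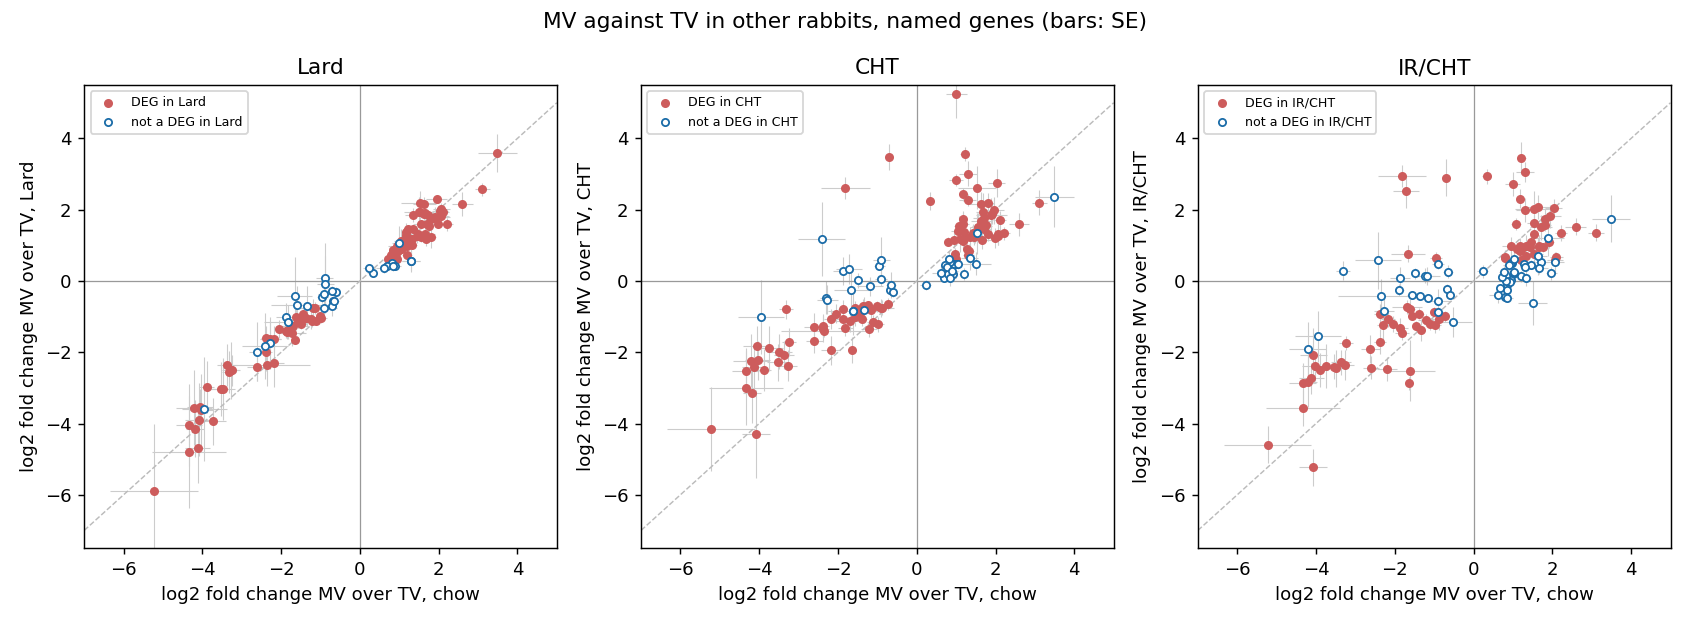
Log2 fold change of MV over TV of the genes named by rule on Ctrl (horizontal) and on Lard, CHT and IR/CHT (vertical, 1 panel each), with SE bars, filled points for DEGs of the vertical treatment and a dashed line of equality. Points follow the line on Lard, and on CHT and IR/CHT part of the genes lie near 0 or across it.

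The left-right difference was also read in the outlet valves of the same Ctrl rabbits. AoV and PV differed in 6609 of 13687 tested genes (48.3%), with 4019 higher in AoV (29.4%) and 2590 higher in PV (18.9%). Of the DEGs higher in MV and tested there, 2507 of 2831 (88.6%) were DEGs higher in AoV. Of those higher in TV, 321 of 1068 (30.1%) were DEGs higher in PV. A test of the difference between both left-right differences passed an edgeR adjusted p of 0.05 in 1218 of 15013 genes (8.11%), 494 more to the left in the inlet valves (3.29%) and 724 more to the left in the outlet valves (4.82%). In this model L168 is set against the other valves of its rabbit, and without L168 the test passed in 1544 genes, of which 1157 were among the 1218. It also includes the 2 AoV libraries nearest to MV.

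Of the named genes 32 passed, and without L168 these and others passed, 49 in all. Of the 32, 19 had opposite signs in both pairs of valves. VCAN, POSTN, VIM and HLA-DRA were higher in MV by 1.19, 0.77, 0.82 and 0.99, while AoV minus PV was 0.05, -0.43, 0.13 and -0.50 (edgeR adjusted p of the test = 0.0107, 0.0111, 0.0189 and 0.0296). SERPINE2 was a DEG higher on the left in both pairs, by 2.22 between MV and TV and by 0.61 between AoV and PV, and this difference passed (edgeR adjusted p = 0.0242).

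Some genes of muscle and nerve that were higher in TV than MV were not DEGs higher in PV than AoV. NEFL was at -4.08 between MV and TV and 2.33 between AoV and PV (edgeR adjusted p of the test = 0.00187), MYL4 at -3.95 and 2.09 (0.00859), FHL2 at -1.61 and 0.48 (0.00171) and CACNA1D at -3.37 and -0.05 (0.00434). Of the heart muscle genes of both chambers, 1 of 22 was a DEG between AoV and PV, higher in AoV, as compared to 48.3% of all tested genes, and the median log2 fold change of the 22 was 2.09. Their summed level varied widely within both valves, with all libraries scaled together. It was 127 to 3598 CPM in AoV (median 348) and 46.1 to 1978 CPM in PV (median 141). The part of single libraries in these differences was not tested. HAND1, which was not a DEG between MV and TV, was higher in AoV than PV (1.51, edgeR adjusted p = 0.00406). By list, and as compared to 8.11% of all tested genes, the test passed in 8 of 14 sinus node and conduction genes, 4 of 9 atrial muscle genes, 6 of 14 Schwann cell and nerve genes, 8 of 19 smooth muscle and myofibroblast genes and 7 of 20 fatty acid handling genes. It passed in 4 of 22 heart muscle genes of both chambers, 8 of 39 Wnt genes and 1 of 22 collagens.

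**Figure D5:**
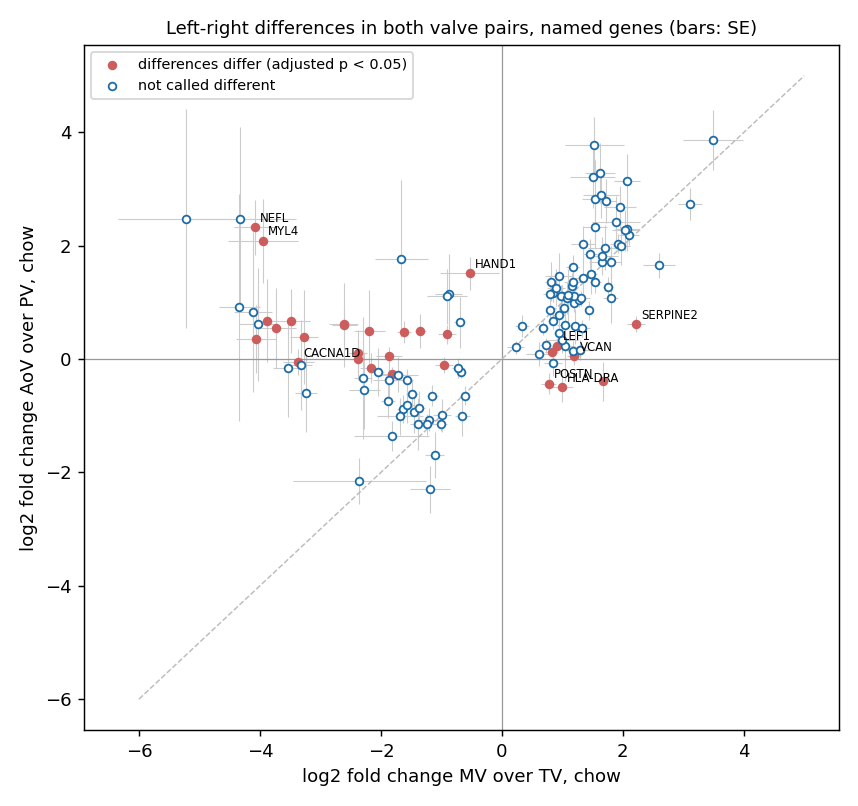
Log2 fold change of MV over TV (horizontal) and of AoV over PV (vertical) on Ctrl for the genes named by rule, with SE bars, filled points where the difference of the differences passed an adjusted p of 0.05, and a dashed line of equality. Most genes higher in MV lie in the upper right, VCAN, POSTN and HLA-DRA lie near or below 0 on the vertical axis, and NEFL and MYL4 lie in the upper left.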

How the data were processed

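The authors deposited raw counts of read pairs for 29587 Ensembl genes (14716 with a symbol) in 134 libraries, 1 table per plate. According to the methods, total RNA of each frozen valve (10 ng) was made into SMARTer Stranded Pico v2 libraries and sequenced on a NovaSeq6000, and reads were mapped to OryCun2.0 with Ensembl annotation and counted with the nf-core rnaseq pipeline. The submitters' processing notes name bcl2fastq 2.20. The deposited counts were neither normalized nor pooled. All columns mapped to a sample by its label, and the rabbit was taken from the number that opens the column name.

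Analysis used R 4.3.3 with edgeR 4.0.16: filterByExpr, TMM scaling, a quasi-likelihood test with the rabbit as a block (5 residual degrees of freedom) and Benjamini-Hochberg adjustment over all tested genes. The script was tested on simulated counts. The pairing was checked: deviations from the group means correlated at 0.189 to 0.421 within a rabbit (6 of 6 above 0.1) and at a median of -0.0671 between rabbits. Samples of a group are separate rabbits, and within MV Ctrl and within TV Ctrl no 2 libraries were duplicates (other groups were not compared). In the check of labels, a library and L168 were left out of the valve means, on log2 CPM with a prior count of 2. At 1 CPM counting alone gives an SD of 25.9% in the smallest library, at 10 CPM 8.20%.

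The comparison and the 42 gene lists (789 of 1069 genes found by symbol) were chosen with earlier results of these data known. Genes named by rule were the 12 with a symbol and the smallest p in each direction with the same sign in every pair, the 3 DEGs with the smallest p of each list, a set of fixed markers, and 2 genes without a symbol per direction. Other named genes were chosen after their values were seen. Levels are not compared between genes. Alternatives were another scaling, no filter, DESeq2 1.42.0, no block, plate terms, larger models and leaving out each library. No sequences are printed, since no genome of this build was used here. Some named genes are not reported here.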

Additional observations from a re-analysis of the deposited data

Results flagged for a closer look

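Of 88 checks of a library against its group (summed lists, depth and correlation with the own valve, by Dixon's gap test at 95%), 17 stood out, and chance alone gives about 1 in 20. L168, the unpaired library labelled TV, gave 14 of them, each beside the nearest other TV library. Its correlation with the TV mean was 0.808 (nearest 0.976). Its summed level was 29644 CPM for the collagens (11087), 10596 CPM for elastic fibres (5155), 7045.5 CPM for the basement membrane (4616), 4620.3 CPM for matrix proteases and inhibitors (2160.3), 1820.3 CPM for cartilage and bone (953), 935 CPM for positional and mesenchymal transcription factors (608), 3127 CPM for the Wnt pathway (2029), 2526 CPM for axon guidance (1562), 3868 CPM for complement (2652) and 377 CPM for chemokines and cytokines (146). For red blood cells it was 61.5 CPM (17.1), for neutrophils 9.83 CPM (5.40) and for the interferon response, where it was lowest, 179.5 CPM (256).

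The paired TV library L243 was highest in ventricular muscle, with 35961 CPM (nearest 13599), and in smooth muscle and myofibroblast genes, with 7662 CPM (nearest 4956). The MV library L262 correlated least with the MV mean, at 0.957 (nearest 0.969). Between both pairs of left and right valves on Ctrl, the left-right difference differed in 1218 genes.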

How the results depend on the processing

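DEGs numbered 2884 higher in MV and 1245 higher in TV. Their total of 4129 stayed within 1.5 times under DESeq2 (4874), DESeq2 size factors (4103), no filter (4057), plate as a covariate (4096), the 4 pairs on plate 1 (4314) and the 4 treatments in 1 model (4533). Leaving out each library in turn gave 2234 to 2974 higher in MV and 1058 to 1278 higher in TV. Without the replicate block the counts were 114 and 430, and with the 4 valves of Ctrl in 1 model 682 and 827. With L168 also left out, in alternatives chosen after seeing the data, they were 2814 and 1149 without the block and 2647 and 1230 in the model of 4 valves. Without a fold threshold 3579 genes passed higher in MV and 2945 higher in TV, 54.9% in MV instead of 69.8%. With the pairs in which each library was nearest to its own valve, also chosen afterwards, 3340 were DEGs, of which 3239 were among the 4129. For Lard, CHT, IR/CHT and AoV against PV, totals and both directions stayed within 1.5 times in the 4 alternatives run, and totals without the replicate block were 3908, 4198, 3400 and 6465. The genes with unequal left-right differences (494 higher and 724 lower in the MV-TV difference) became 580 and 2140 without the replicate block, 180 and 397 without the filter, and 521 and 1023 without L168. The cause was not tested. For Lard against Ctrl the edgeR count was 0 each time, and 306 genes had an unadjusted p under 0.05 (807 without the block, 333 without the filter). No named gene that was a DEG turned its sign, and of the others HAND1, not a DEG in any alternative, ran from -0.82 to 0.15 on the log2 scale (0.15 on the plate 1 pairs). PECAM1 and HCN4 became DEGs with DESeq2, PECAM1 also with the 4 treatments in 1 model, and HCN4 also without either library of rabbit L08719, with the 4 valves in 1 model without L168 and with the pairs nearest to their own valve. Of 137, 78 lost their call without the block, 28 with the 4 valves in 1 model and 0 to 8 in each other alternative. Genes at a few CPM are limited by counting.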

Other observations

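The summed level of the heart muscle genes of both chambers was also read in the other valves and treatments, with all libraries scaled together. On Ctrl it was 127 to 3598 CPM in AoV (n = 7) and 46.1 to 1978 CPM in PV (n = 7). In TV it was 2878 to 16297 CPM on Lard (n = 6), 3316 to 12738 CPM on CHT (n = 6) and 1597 to 8558 CPM on IR/CHT (n = 7). The seventh Lard library labelled TV, L272, was nearest to PV and at 87.4 CPM, and the library labelled PV of the same rabbit, L271, was nearest to TV and at 2146 CPM, above the other 6 PV libraries on Lard (25.6 to 1099.95 CPM). In MV it was 52.3 to 1445 CPM on Lard, 141 to 2153 CPM on CHT and 231.98 to 1999 CPM on IR/CHT, and among the MV libraries nearest to their own valve, a choice made after seeing the data, 64.0 to 1445, 649 to 2153 and 231.98 to 1999 CPM. The summed endothelial list was 410 to 1566 CPM in MV on Lard, 759.6 to 1197 CPM on CHT and 783 to 2173 CPM on IR/CHT, and among the libraries nearest to their own valve 735 to 1566, 836 to 1197 and 783 to 1492 CPM.

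CIITA, the master regulator of MHC class II genes, which was chosen after its values were seen, was at 1.25 to 6.71 CPM in MV and 0.0598 to 1.20 CPM in the paired TV libraries, and at 9.09 CPM in L168. The groups of paired libraries did not overlap (log2 fold change 3.31, SE 0.63, adjusted p = 0.00473 in edgeR, higher in 6 of 6 pairs). Between AoV and PV its log2 fold change was 3.36 (SE 0.77, adjusted p = 0.00840 in edgeR).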
